A study of Mus musculus with 21 samples.

Results

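The collagen chains measured here were 44 genes of 45777 in the deposited tables, chosen as the protein-coding genes whose symbol is Col, a type number, the letter a and a chain number. The libraries were made from thyroid glands of C57BL/6J mice that received pLIVE plasmids, which are built for lasting expression in liver cells. Each of the 7 groups had 3 libraries. Empty received the pLIVE-Empty plasmid and was sampled at 1 week and at 4 weeks. TSH received the plasmids pLIVE-TSHB and pLIVE-CGA, which carry the subunits of thyrotropin (TSH), the pituitary hormone that stimulates the thyroid, and was sampled at the same times. TSH-MMI received the TSH plasmids together with thiamazole (MMI, also called methimazole), a drug that blocks thyroid hormone synthesis, again at both times. Empty-MMI received the empty plasmid with MMI and was sampled at 4 weeks only. All 21 libraries shared the tissue and strain, and every group, Empty included, carries the treatment tag "Hyperthyroidism induction". The labels give no age, sex or MMI dose, and do not say that each library came from its own animal, so the p-values are over the spread among these libraries, which may be technical. Groups had n = 3 libraries throughout.

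Collagens are secreted proteins whose chains wind around each other into a triple helix. The fibrillar types build the tensile fibrils of connective tissue, type IV builds the sheet-like network of basement membranes, on which thyroid follicles and capillaries rest, and the multiplexins (types XV and XVIII) sit at the edge of those membranes. Type VI forms beaded filaments that link cells to the matrix around them, FACIT collagens decorate the surface of fibrils, and a group of chains (types II, IX, X and XI) is best known from cartilage. In most tissues fibroblasts make the fibrillar chains, while endothelial and epithelial cells also make type IV.

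The 44 chains comprised 8 fibrillar, 6 type IV, 2 multiplexin and 6 type VI chains, 7 chains of cartilage, 6 FACIT chains outside cartilage, 2 short-chain network chains (type VIII), 1 anchoring fibril chain (type VII), 4 transmembrane chains and 2 others (Col26a1 and Col28a1). At 1 week 39 chains passed the filter on low counts, and at 4 weeks 40 did. Those left out in every fit were Col2a1, Col10a1, Col24a1 and Col6a4, while Col19a1, a FACIT chain, was left out at 1 week only.

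The genes of the type IV chains lie in head-to-head pairs, and a stretch near the starts of each pair is shown because the type IV results are given by pair (after the fibrillar chains). Annotated starts of Col4a1 (chr8:11198423-11312826, minus strand) and Col4a2 (chr8:11312805-11449287, plus strand) lay 21 bases apart on GRCm38 in the GENCODE annotation, and the genes overlapped by 22 bases. Between Col4a4 (chr1:82448423-82586849, minus strand) and Col4a3 (chr1:82586921-82722059, plus strand) lay 71 bases, and between Col4a6 (chrX:141165403-141474076, minus strand) and Col4a5 (chrX:141475385-141689234, plus strand) 1308. The sequences are from RefSeq, build GRCm38.p6, each on its gene's own strand and 5′ to 3′. Capitals mark CCAAT, a motif bound by the factor NF-Y. The Col4a2 stretch (chr8:11312760-11312789) lies in annotated exon sequence of Col4a1, before the start of Col4a2, that of Col4a4 (chr1:82586850-82586879) between the genes, and those of Col4a6 (chrX:141474096-141474326) and Col4a5 (chrX:141475169-141475369) between that pair, each being part of the gap.
Col4a2: cccgaggagctccCCAATttgttggcgctg
Col4a4: gtggccagcagccctgcccagattaagcgg
Col4a6: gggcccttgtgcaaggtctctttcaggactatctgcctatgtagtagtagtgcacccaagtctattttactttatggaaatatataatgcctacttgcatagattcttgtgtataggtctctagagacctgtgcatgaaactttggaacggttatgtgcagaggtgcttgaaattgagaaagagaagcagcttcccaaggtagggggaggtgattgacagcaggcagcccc
Col4a5: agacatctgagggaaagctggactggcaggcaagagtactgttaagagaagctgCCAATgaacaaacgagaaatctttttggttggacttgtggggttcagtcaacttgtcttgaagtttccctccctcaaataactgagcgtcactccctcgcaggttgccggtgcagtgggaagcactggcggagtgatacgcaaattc

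Stretches before the starts of fibrillar genes that moved together are shown as a second set, with capitals for CCAAT in Col1a2 (chr6:4505497-4505526, plus strand) and for TATAAA, the usual form of the TATA box, in Col3a1 (chr1:45311288-45311537, plus strand). The Col1a2 stretch, like that of Col4a2, lies in exon sequence of the GENCODE annotation.
Col1a2: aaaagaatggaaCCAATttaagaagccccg
Col3a1: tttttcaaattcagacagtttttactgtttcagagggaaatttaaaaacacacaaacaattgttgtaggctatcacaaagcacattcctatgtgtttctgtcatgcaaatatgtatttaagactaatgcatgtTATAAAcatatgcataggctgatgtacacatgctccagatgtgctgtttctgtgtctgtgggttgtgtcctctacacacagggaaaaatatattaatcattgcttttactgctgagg
Counted from the start that each RefSeq promoter window uses, CCAAT began 109 bases before that of Col1a2, 32 before that of Col4a2 and 196 before that of Col4a5, and TATAAA began 117 bases before that of Col3a1. For Col4a5 the start of the window lies inside the gene, after the GENCODE start given above. RefSeq promoter windows of 300 bases (250 before to 50 after the start) were at hand for 35 of the 44 chains, in 38 windows. On either strand TATAAA was in 13.2% of these and in 13.6% of all 32851 windows, CCAAT in 34.2% and 37.4%, and GGGCGG, the core of the Sp1 site, in 60.5% and 35.7%. No match of one motif overlapped a match of another in the collagen windows, and a match is a description of the sequence only.

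Depth ran from 32244842 to 51886245 counts per library. Of the thyroid follicular markers, Tg, which encodes thyroglobulin, stood at 17444 to 32912 FPKM and the transcription factor gene Pax8 at 118 to 184 in the 21 libraries, where FPKM is fragments per kilobase of transcript scaled to library depth. Tissue from beside the gland was present in varying amounts. The 8 skeletal muscle markers summed to 1861 to 7112 FPKM in Empty at 4 weeks, against 22.2 to 139 where Empty was given with MMI, 2.15 to 629 for TSH and 1.65 to 252 for TSH-MMI. At 1 week they summed to 3.94 to 809 FPKM in Empty, 99.9 to 2214 in TSH and 44 to 467 in TSH-MMI. The parathyroid markers Pth and Gcm2 were low in Empty replicate 3 (60.3 FPKM) and at 0 in TSH replicate 1 at 4 weeks, against 572 to 7710 elsewhere. Of immature thymocyte markers, Empty replicate 3 held 51.9 FPKM and TSH-MMI replicate 2 held 6.61 at 1 week, and no other library exceeded 0.926. In whole tissue, fewer cells of a type and less RNA per cell cannot be told apart.

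In the Empty groups the type IV pair Col4a1 and Col4a2 led. In Empty at 1 week Col4a1 stood at 87.7 ± 2.45 FPKM (mean ± SD, n = 3) and Col4a2 at 73.9 ± 4.55, followed by Col6a2 at 57.8 ± 1.30, Col18a1 at 53.3 ± 5.96, Col3a1 at 38.4 ± 4.22 and Col1a2 at 28.4 ± 1.33. Col6a2 and Col18a1 were neighbours in this order that lay within their spread. Empty at 4 weeks had the same 6 leading chains in the same order, from Col4a1 at 56.7 ± 3.98 FPKM to Col1a2 at 22.3 ± 0.982, with Col6a2 (39.4 ± 1.11) and Col18a1 (38.6 ± 2.66) again within their spread. Levels of the weeks come from separate tables. In TSH at 1 week Col3a1, the chain of type III fibrils, was second at 179 ± 8.37 FPKM behind Col4a1 at 224 ± 19.4, and Col4a2 followed at 155 ± 9.52.

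All collagen chains together summed to 488, 494 and 481 FPKM in Empty at 1 week, to 1125, 1217 and 1210 in TSH and to 1004, 964 and 949 in TSH-MMI. At 4 weeks the sums were 322, 353 and 343 in Empty and 459, 442 and 447 where MMI was added to it. With TSH they were 527, 519 and 593, and with TSH-MMI 686, 567 and 550. At each week every library given TSH lay above every library without it. These sums are in FPKM, whose scaling differs from that of the fold changes below. As a share of all counts, collagen chains took 0.295% to 0.312% in Empty at 1 week and 0.690% to 0.739% in TSH.

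The make-up of that sum differed by class at 1 week. The fibrillar chains gave 18.6%, 21.1% and 19.2% of collagen FPKM in Empty, 33.6%, 31.1% and 34.2% with TSH and 29.0%, 34.6% and 30.3% with TSH-MMI, with no overlap between Empty and the TSH-treated libraries. Type IV gave 42.0% ± 0.601 in Empty and 35.5% ± 0.866 in TSH, and type VI 17.9% ± 0.352 and 14.3% ± 0.705. At 4 weeks the fibrillar share was 20.6% ± 2.13 in Empty and 20.7% ± 1.07 in TSH, with 19.9% ± 2.05 for Empty-MMI and 24.5% ± 2.84 for TSH-MMI, so that Empty and TSH overlapped although the total differed.

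**Figure D1:**
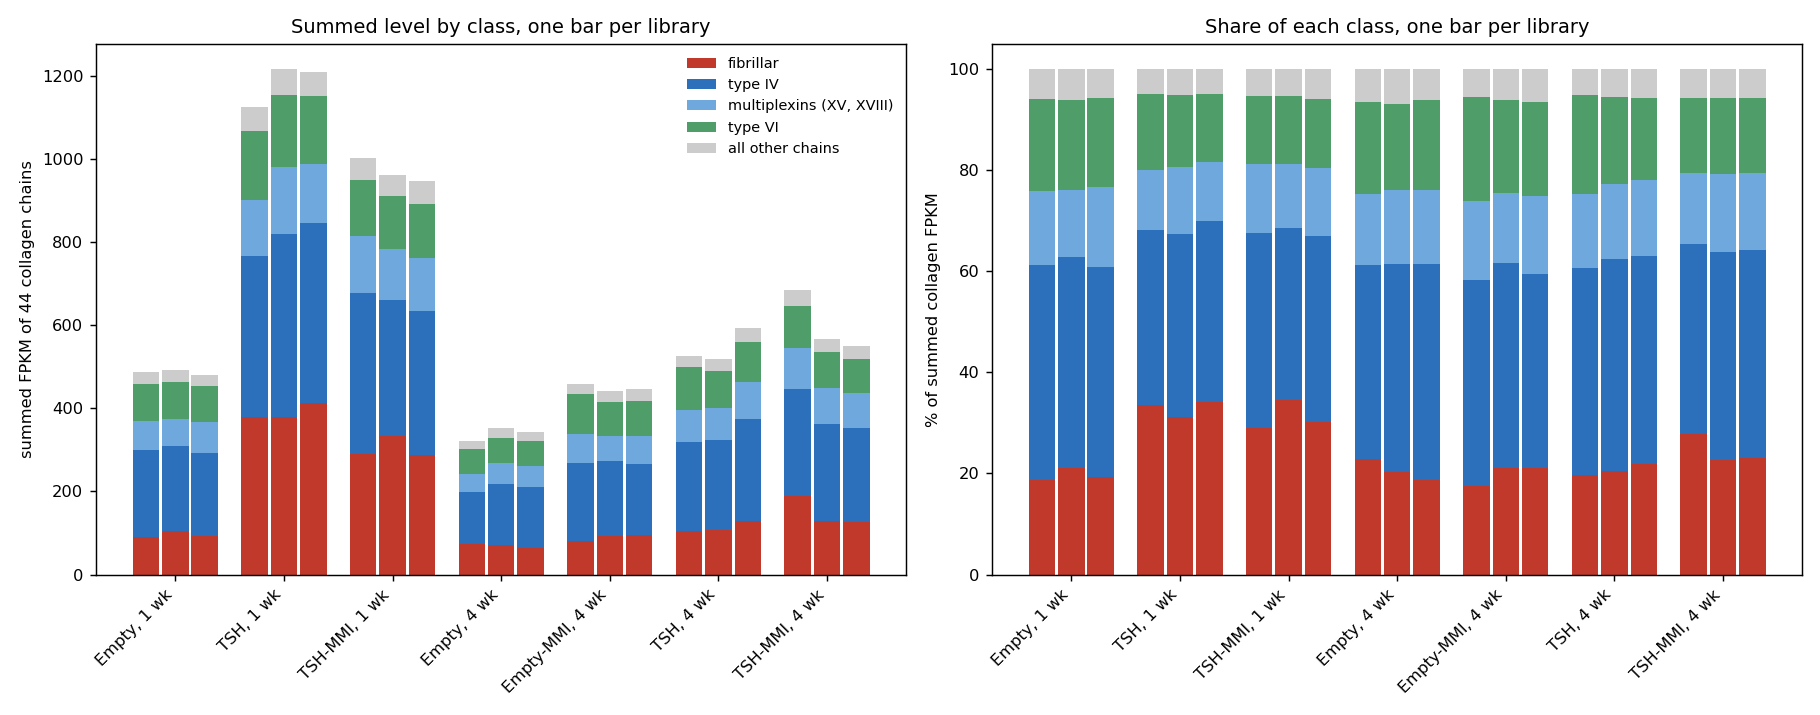
Summed FPKM of the 44 collagen chains (left) and the percentage given by each class (right), 1 bar per library in the order of replicates, by group. The fibrillar share stands at 31.1% to 34.2% in TSH at 1 week against 18.6% to 21.1% in Empty, and at 20.7% ± 1.07 (mean ± SD) in TSH at 4 weeks against 20.6% ± 2.13 in Empty.

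The first comparison asked what TSH changed after 1 week. By edgeR's quasi-likelihood test with Benjamini-Hochberg adjustment over all genes, at a threshold of 0.05, 22 of 39 tested chains rose and 2 fell in TSH against Empty. Of all 16956 genes tested, 14.8% rose and 9.34% fell. The chains had a median log2 fold change of 0.86, against 0.00 for all genes, and ranged from -1.72 to 3.34. TSH-MMI against Empty, which shares the Empty libraries, had 22 chains higher and 3 lower, against 13.6% and 7.97% of all genes, with a median of 0.45.

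The fibrillar chains had a median log2 fold change of 1.92 at 1 week, and 6 of 7 tested rose. Col1a1, which with Col1a2 forms type I collagen, the main protein of tendon, skin and bone, stood at 17.3, 19.2 and 17.5 FPKM in Empty, 68.3, 72.8 and 81.2 under TSH and 56.0, 58.9 and 46.5 under TSH-MMI. Every TSH library lay above every TSH-MMI library, and both groups lay above Empty. Col1a1 rose 3.99-fold in TSH (log2 fold change 2.0, SE 0.10, edgeR adjusted p = 5.89e-07) and 2.78-fold in TSH-MMI (1.47, SE 0.10, edgeR adjusted p = 8.64e-06).

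Col1a2 stood at 28.7, 29.5 and 26.9 FPKM in Empty, 92, 98.2 and 108 with TSH and 76.7, 84.0 and 72.7 with TSH-MMI, and rose 3.38-fold and 2.54-fold (edgeR adjusted p = 3.72e-07 and 5.83e-06). Col3a1, the chain of type III collagen, which is laid down in vessel walls and in young connective tissue, stood at 34.7, 43.0 and 37.6 FPKM in Empty, 180, 169 and 186 under TSH and 128, 159 and 138 under TSH-MMI. It rose 4.5-fold in TSH (log2 fold change 2.17, SE 0.10, edgeR adjusted p = 2.98e-07) and 3.41-fold in TSH-MMI (1.77, SE 0.10, edgeR adjusted p = 2.64e-06). For both genes the order of the groups was that of Col1a1, with no overlap between any pair of them. None of these genes was called between TSH-MMI and TSH, and the share of all genes that separated in this way is not given here.

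Type V collagen is the fibrillar type that starts and narrows type I fibrils. Col5a1 stood at 3.59, 4.01 and 3.64 FPKM in Empty, 14.1, 14.8 and 15 with TSH and 11.5, 11.4 and 9.43 with TSH-MMI. Col5a2 stood at 3.47, 4.61 and 3.89, at 16.2, 16.6 and 17.1, and at 12.6, 14.4 and 14.4 in the same groups. They rose 3.79-fold and 4.04-fold in TSH (log2 fold changes 1.92 and 2.01, SE 0.09 and 0.10, edgeR adjusted p = 3.72e-07 for each). Col5a3, the chain of type V with a more restricted distribution, rose by a log2 fold change of 1.16. Col27a1, a fibrillar chain of developing cartilage, had 34 to 85 counts in a library with a log2 fold change of -0.23 that did not pass, and Col24a1, a minor fibrillar chain, had at most 12 counts in any library.

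**Figure D2:**
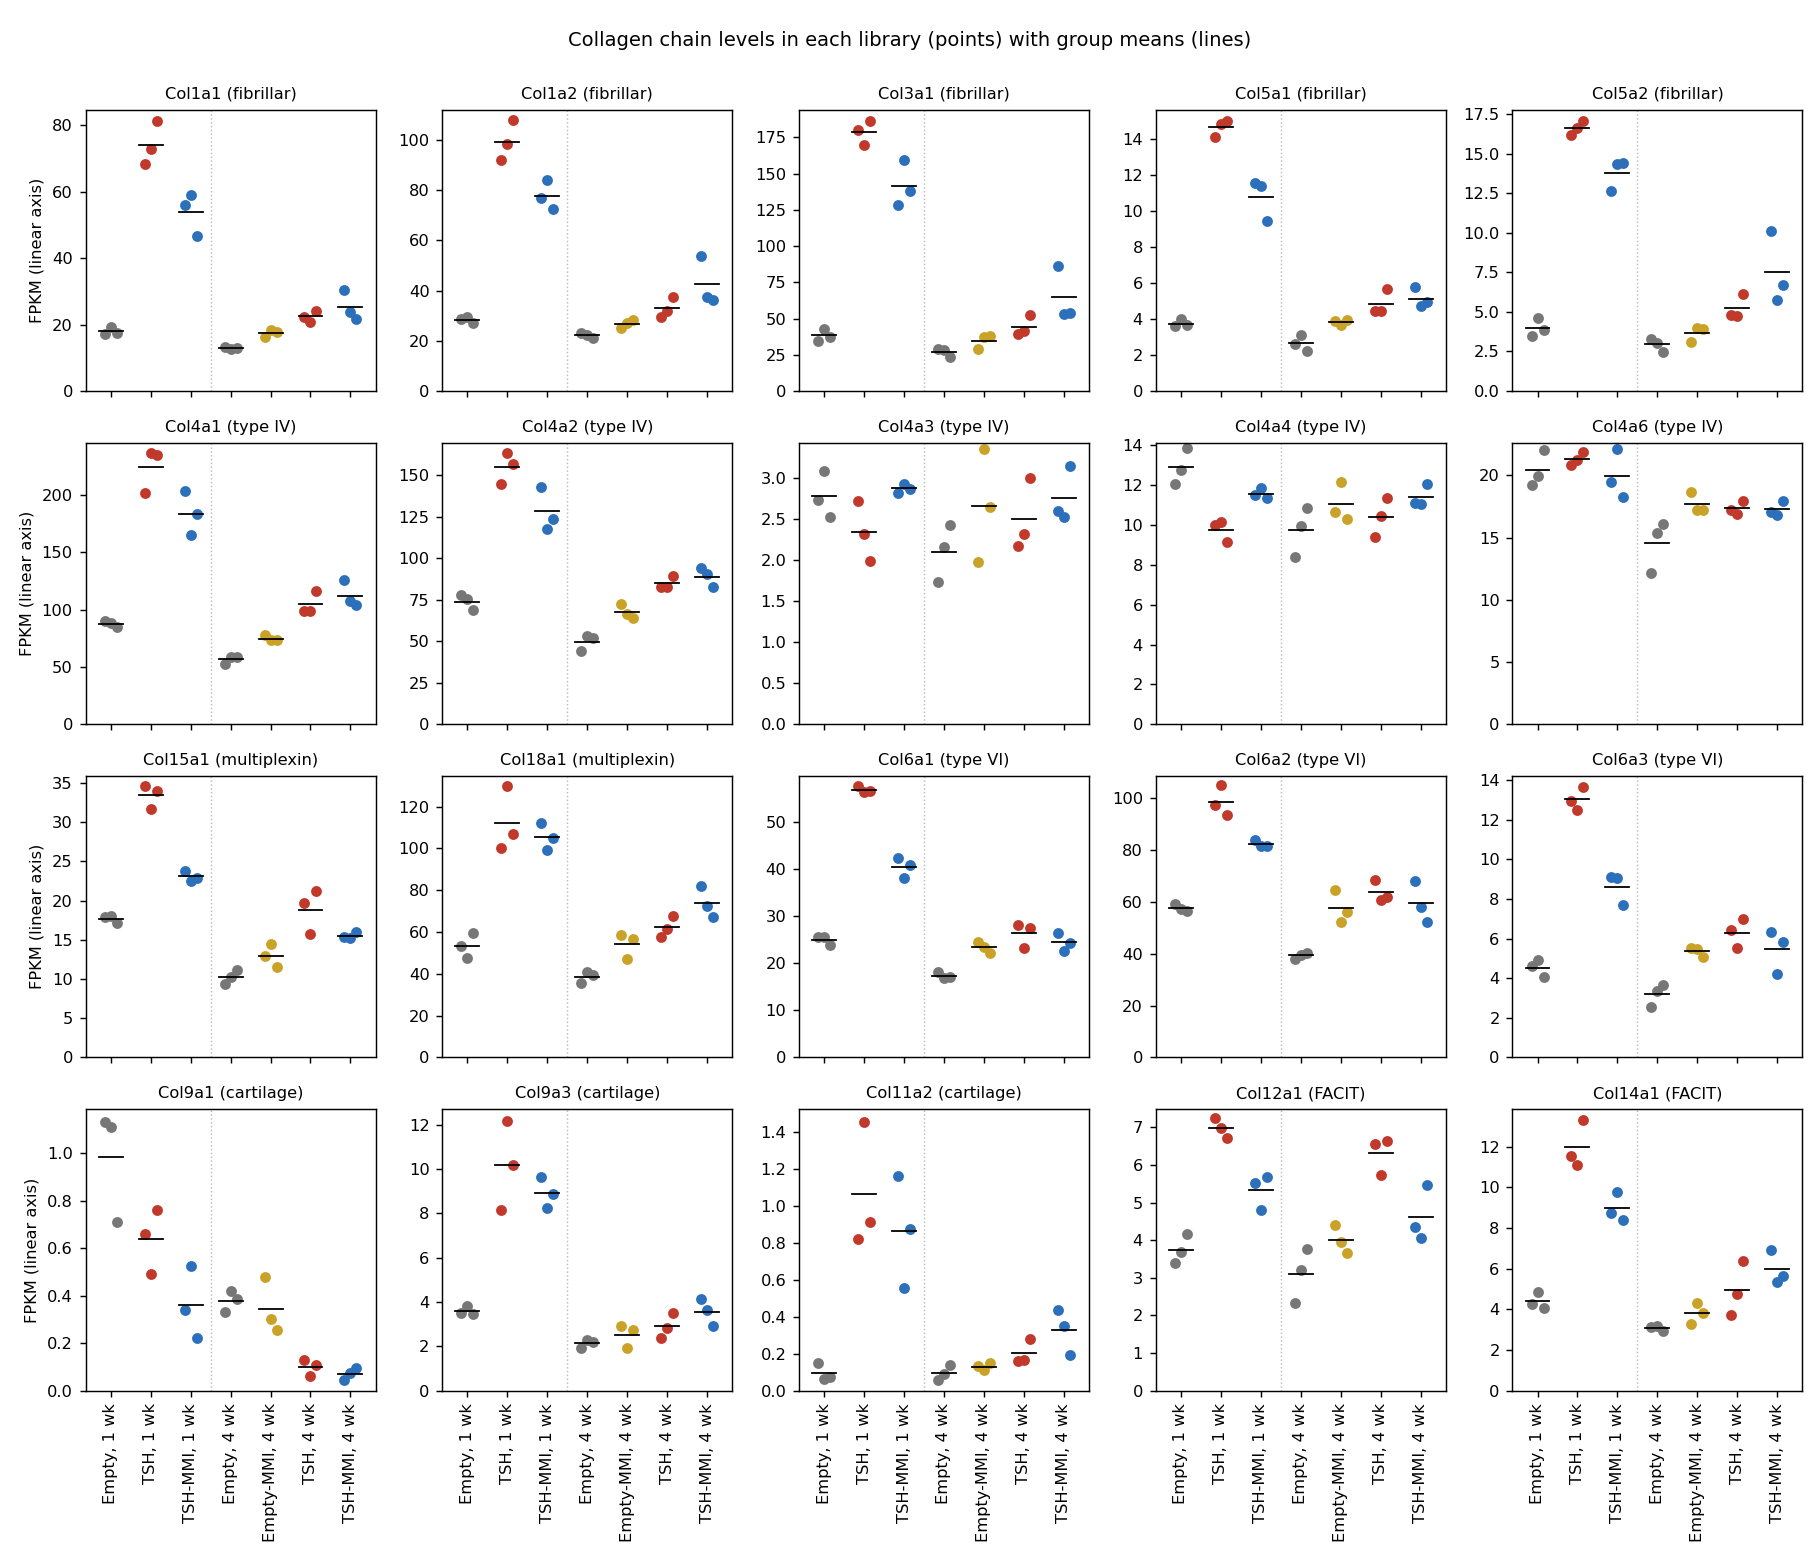
FPKM of 20 collagen chains in each library (points, by replicate from left to right) with the group mean as a line, on linear axes that start at 0 and differ between panels; the dotted line parts 1 week from 4 weeks. Col1a1 stands at 68.3 to 81.2 FPKM in TSH at 1 week against 17.3 to 19.2 in Empty, while Col4a4 lies at 9.14 to 10.1 against 12 to 13.8.

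The 6 type IV chains are given by pair, and differences between chains or pairs were not tested. Col4a1 and Col4a2, which form the network found in nearly every basement membrane, rose. Col4a1 stood at 89.9, 88.1 and 85.1 FPKM in Empty, 202, 236 and 234 under TSH and 203, 165 and 183 under TSH-MMI, and rose 2.47-fold and 1.94-fold (log2 fold changes 1.31 and 0.96, SE 0.10 for each, edgeR adjusted p = 6.64e-06 and 7.79e-05). Col4a2 stood at 77.7, 75.1 and 68.8 FPKM in Empty, 145, 163 and 157 with TSH and 143, 118 and 124 with TSH-MMI, and rose 2.03-fold and 1.61-fold (edgeR adjusted p = 3.89e-05 and 0.000692). Both chains separated Empty from the other groups without overlap, and the share of all genes that separated in this way is not given here.

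Col4a3 and Col4a4, chains of the network best known from the kidney glomerulus and mutated in Alport syndrome, did not rise. Col4a4 stood at 12, 12.8 and 13.8 FPKM in Empty, 10.01, 10.1 and 9.14 under TSH and 11.5, 11.8 and 11.3 under TSH-MMI. It fell 1.37-fold in TSH (log2 fold change -0.45, SE 0.07, edgeR adjusted p = 0.000596) and 1.22-fold in TSH-MMI (-0.29, SE 0.07, edgeR adjusted p = 0.00962), the second call being lost without TSH-MMI replicate 3 and with limma on FPKM (highest adjusted p = 0.181). For Col4a4 each Empty library lay above each library of the other groups, and the share of all genes doing so is not given here. Col4a3, at 2.52 to 3.08 FPKM in Empty and 1.99 to 2.72 in TSH, did not pass (log2 fold change -0.29, SE 0.12, edgeR adjusted p = 0.0989).

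Col4a5 and Col4a6, which form a network of epithelial and smooth muscle basement membranes, lay near their control level. Col4a5, at 6.68, 6.76 and 7.38 FPKM in Empty and 8.76, 7.71 and 8.61 in TSH, rose 1.17-fold (log2 fold change 0.23, SE 0.07, edgeR adjusted p = 0.035), a call lost at 10 of 15 other settings (highest adjusted p = 0.116), among them leaving out any single Empty library. Col4a6 stood at 19.2, 19.9 and 22.0 FPKM in Empty and 20.8, 21.2 and 21.9 in TSH, with a log2 fold change of 0.02. By FPKM Col4a6 ranked below Col4a1 and Col4a2 and above the other type IV chains in each of the 21 libraries.

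**Figure D3:**
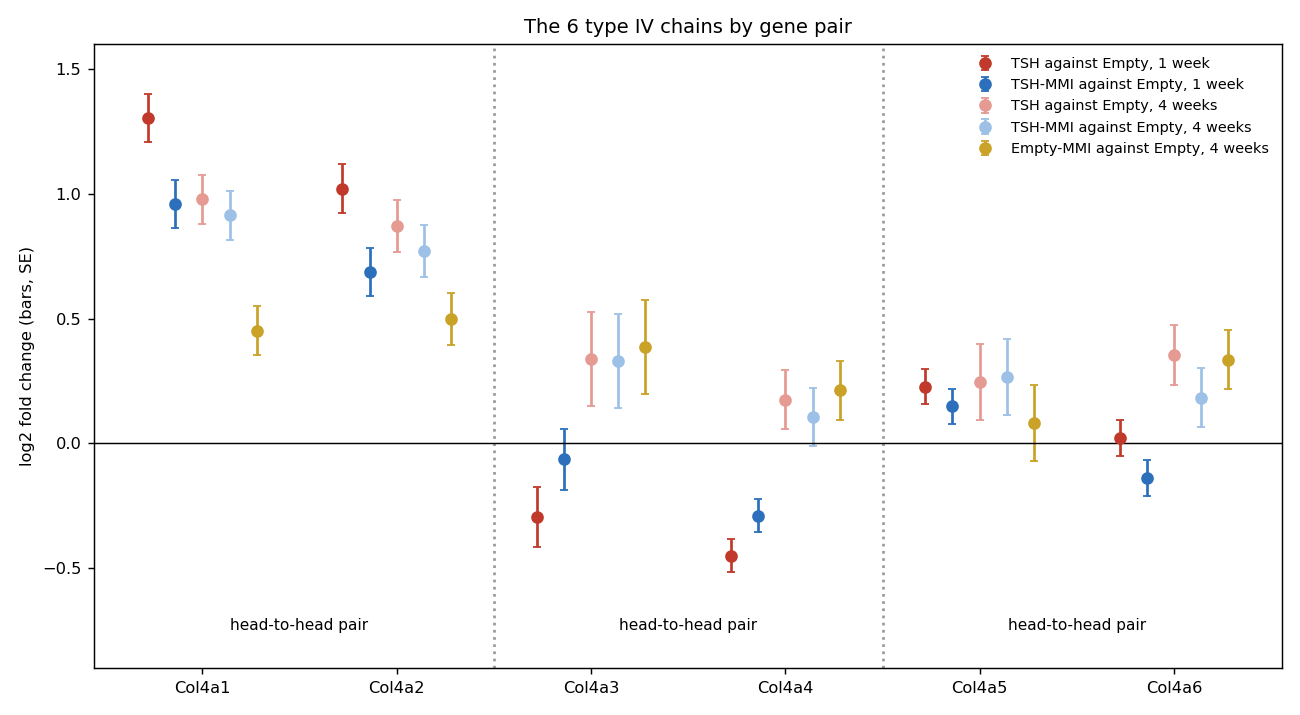
Log2 fold change with its standard error for the 6 type IV chains in the 5 comparisons with Empty of the same week, arranged by head-to-head gene pair (n = 3 libraries per group; comparisons of a week share the Empty libraries). Col4a1 and Col4a2 stand at 1.31 and 1.02 for TSH at 1 week, while Col4a3 and Col4a4 stand at -0.29 and -0.45.

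The multiplexins rose with Col4a1. Col18a1, whose C-terminal fragment is endostatin, stood at 53.2, 47.4 and 59.3 FPKM in Empty, 99.9, 130 and 107 with TSH and 112, 99.3 and 105 with TSH-MMI, and rose 2.04-fold and 1.84-fold (edgeR adjusted p = 4.68e-05 and 0.000208). Col15a1, a chain of capillary and muscle basement membranes, stood at 17.9, 18.1 and 17.2 FPKM in Empty, 34.6, 31.7 and 34.0 under TSH and 23.8, 22.5 and 22.9 under TSH-MMI. Its rise was 1.82-fold in TSH and 1.21-fold in TSH-MMI (edgeR adjusted p = 1.23e-05 and 0.0165), the second call being lost without both libraries with thymocyte transcripts and without Empty replicate 3, TSH-MMI replicate 1 or TSH-MMI replicate 3 (highest adjusted p = 0.0696). TSH and TSH-MMI overlapped for Col18a1 and stood apart for Col15a1, with the share of all genes that stood apart not given here.

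Of the type VI chains, the 3 that build the common filament rose. Col6a1 stood at 25.5, 25.6 and 23.8 FPKM in Empty, 57.7, 56.4 and 56.5 with TSH and 42.2, 38.1 and 40.9 with TSH-MMI. Col6a2 stood at 59.2, 57.5 and 56.7, at 97.3, 105 and 93.5, and at 84.1, 81.5 and 81.8, and Col6a3, the longest chain of the filament, at 4.62, 4.94 and 4.04, at 12.9, 12.5 and 13.6, and at 9.11, 9.07 and 7.70 in the same groups. Each chain separated the groups without overlap, in the order Empty, TSH-MMI, TSH. Of the 3, only Col6a1 was called between TSH-MMI and TSH, a call given below with its losses. The share of all genes that separated in this way is not given here. They rose by log2 fold changes of 1.14, 0.73 and 1.49 with TSH and 0.59, 0.41 and 0.85 with TSH-MMI (edgeR adjusted p = 0.00151 or below). The chains that can take the place of Col6a3, Col6a5 and Col6a6, had 2 to 38 counts at 1 week and did not pass, and Col6a4 had at most 9 counts in any library.

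Among the cartilage chains there was no shared direction. Col2a1, the main collagen of cartilage, had 0 counts throughout (up to 3 counts a library remain possible), and Col10a1, of hypertrophic cartilage, had 0 to 8. Col9a3, a chain of type IX collagen, stood at 3.52, 3.83 and 3.45 FPKM in Empty, 8.16, 12.2 and 10.2 under TSH and 9.64, 8.26 and 8.85 under TSH-MMI, and rose 2.71-fold and 2.27-fold (edgeR adjusted p = 2.77e-05 and 0.000168). Its partner Col9a1 stood at 1.13, 1.11 and 0.709 FPKM in Empty, 0.659, 0.490 and 0.762 with TSH and 0.338, 0.524 and 0.221 with TSH-MMI, so that Empty and TSH overlapped.

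Col9a1 did not pass in TSH (log2 fold change -0.66, SE 0.29, edgeR adjusted p = 0.125) and fell 2.75-fold in TSH-MMI (edgeR adjusted p = 0.00599). Col11a2, a chain of type XI collagen, had 46, 18 and 22 counts in Empty, 240, 430 and 344 under TSH and 355, 173 and 251 under TSH-MMI, and rose 10.1-fold and 7.94-fold (log2 fold changes 3.34 and 2.99, SE 0.40 for each, edgeR adjusted p = 0.000437 and 0.00108). These were the highest fold changes of any called chain in these comparisons, at a level of 0.822 to 1.45 FPKM in TSH. Col11a1, its fibril partner in cartilage, stood at 0.0986 to 0.113 FPKM in Empty and 0.107 to 0.140 in TSH (log2 fold change 0.11, not called), and Col9a2, the other type IX chain, did not pass. The non-collagen cartilage markers summed to 2.98 to 4.53 FPKM in Empty and 16.9 to 20.1 in TSH, with Acan, Cnmd and Comp called higher, and Matn1, Matn3, Snorc and Ucma too low to test at 1 week. By counts Cnmd led them, at 952 to 1311 in TSH, against 39 to 65 for Acan, 114 to 139 for Comp and 43 to 63 for Hapln1. The part of cartilage tissue in the change of Col9a3 and Col11a2 was not tested.

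The FACIT chains Col14a1, Col12a1 and Col16a1, which lie on fibril surfaces, rose in TSH by log2 fold changes of 1.40, 0.85 and 0.85. Col14a1 stood at 4.26, 4.87 and 4.05 FPKM in Empty, 11.5, 11.1 and 13.3 with TSH and 8.75, 9.76 and 8.41 with TSH-MMI, and Col12a1 at 3.39, 3.67 and 4.16, at 7.23, 6.97 and 6.71, and at 5.51, 4.79 and 5.69. The groups did not overlap for either chain, and the order was again Empty, TSH-MMI, TSH. Neither chain was called between TSH-MMI and TSH, and the share of all genes that separated in this way is not given here. Col8a1, which with Col8a2 forms the short-chain network of vessel walls and of the corneal membrane, stood at 2.67, 2.57 and 2.28 FPKM in Empty, 10.3, 11.6 and 10.3 under TSH and 9.37, 9.12 and 12.5 under TSH-MMI.

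Col8a1 rose 4.12-fold in TSH and 3.80-fold in TSH-MMI (log2 fold changes 2.04 and 1.93, SE 0.12 for each, edgeR adjusted p = 2.81e-06 and 6.72e-06), and Col8a2 rose by 0.90 and 0.87. Among the other chains Col28a1, related to type VI, rose by 0.91, a call lost in TSH against Empty with only the compared groups and without Empty replicate 1 or any TSH library (highest adjusted p = 0.0900). Col23a1, a transmembrane collagen, had 323, 176 and 288 counts in Empty and 125, 47 and 106 in TSH and fell 3.28-fold (log2 fold change -1.72, SE 0.39, edgeR adjusted p = 0.0106), a call lost without TSH replicate 3 and without the libraries with thymocyte transcripts (highest adjusted p = 0.0509). Col7a1, the chain of skin anchoring fibrils, was called higher in TSH-MMI at 0, 4 and 8 counts against 33, 22 and 22 (edgeR adjusted p = 0.048), a call lost at 7 of 15 other settings, including limma, no filter, and leaving out Empty replicate 1 or 2 or any TSH-MMI library (highest adjusted p = 0.211). In TSH-MMI Col23a1 fell by 1.53 on the log2 scale, a call lost without Empty replicate 1, TSH-MMI replicate 2 or 3 or the libraries with thymocyte transcripts (highest adjusted p = 0.122). The parathyroid markers Pth and Gcm2 summed to 2363 to 4162 FPKM in Empty, 1155 to 2055 in TSH and 572 to 1976 in TSH-MMI at 1 week, and at 4 weeks Col23a1 was lowest in the libraries where they were lowest, Empty replicate 3 (54 counts) and TSH replicate 1 (26 counts); their part in the falls of Col23a1 was not tested. Col28a1 rose there by 1.06, a call lost without TSH-MMI replicate 2 (0.0702), and the call for Col8a2 was lost without Empty replicate 2 or TSH-MMI replicate 3 (0.0839). The transmembrane chains Col13a1, Col17a1 and Col25a1, the FACIT chains Col20a1 and Col22a1, and Col26a1 did not pass in either comparison.

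The next comparison set TSH-MMI against TSH at 1 week. Called lower were Col15a1 and Col6a1 (log2 fold changes -0.59 and -0.55, SE 0.07 for each, edgeR adjusted p = 0.04 and 0.0422), against 0.0177% of all genes, and no chain was called higher, against 0% of all genes. Both calls were lost without any TSH or TSH-MMI library, without the libraries with thymocyte transcripts, with limma, with the muscle score as a covariate and with the replicate block (highest adjusted p = 0.327 and 0.331), while DESeq2 called 13 chains lower. At an unadjusted p under 0.05 edgeR had 16 chains lower, among them Col5a1 (-0.50, SE 0.09), Col1a1 (-0.52, SE 0.10) and Col6a3 (-0.64, SE 0.12). The share of all genes lower at that threshold, or called by DESeq2, is not given here. These counts are therefore no result about collagens.

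**Figure D4:**
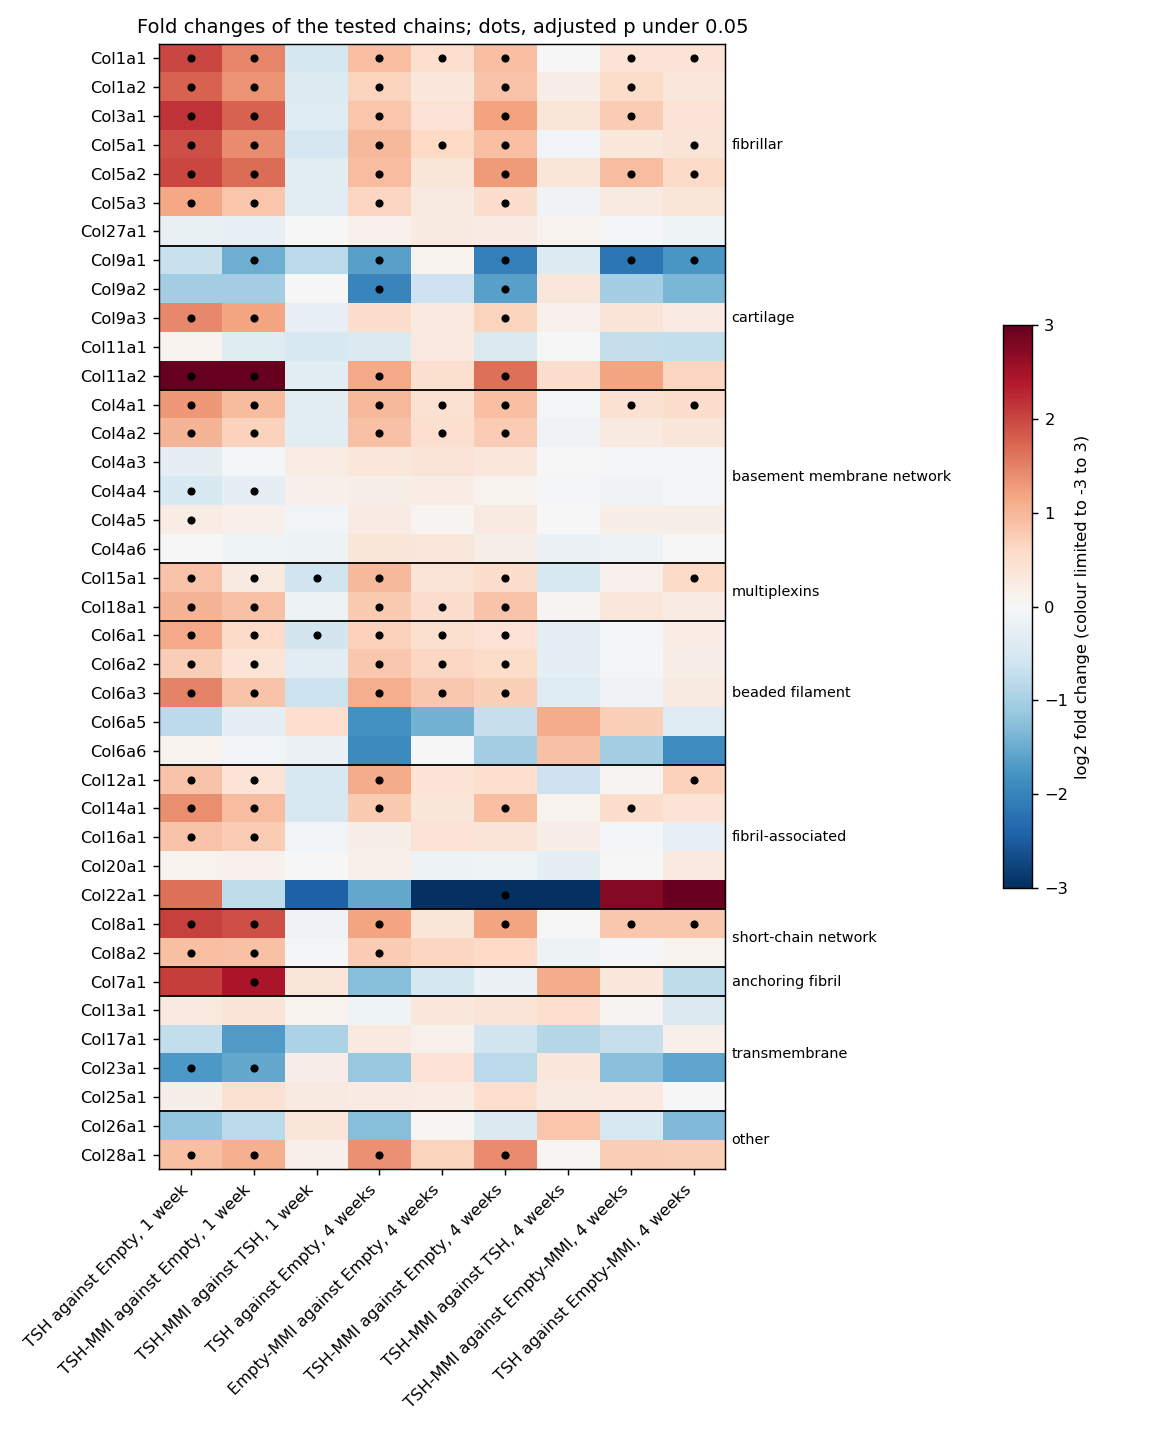
Log2 fold change of the 39 chains tested at both weeks (rows, by class) in the 9 comparisons of groups (columns), with colours limited to -3 to 3 and a dot where edgeR's adjusted p is under 0.05; comparisons that share a group share its 3 libraries, and the fitted values of Col22a1 against Empty-MMI, where it had 0 counts, are no measure of size. Fibrillar chains other than Col27a1 are dotted in each comparison of TSH or TSH-MMI with Empty, while the column of TSH-MMI against TSH at 4 weeks has no dot.

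At 4 weeks 19 of 40 tested chains rose and 2 fell in TSH against Empty, against 8.52% and 5.61% of all 17355 genes, with a median log2 fold change of 0.45 (all genes -0.03). In TSH-MMI against Empty, with the same Empty libraries, 18 rose and 3 fell, against 8.77% and 5.97%, with a median of 0.50. With the muscle score as a covariate 17 and 11 chains were called higher and none lower, and skeletal muscle markers were higher in each Empty library than in each TSH and TSH-MMI library. Of the chains called, 16 of 21 and 11 of 21 were called at every setting tried.

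The fibrillar chains had a median log2 fold change at 4 weeks of 0.84 for TSH and 0.89 for TSH-MMI, with 6 of 7 called higher in each. Col1a1 stood at 13.3, 12.5 and 12.9 FPKM in Empty, 22.4, 20.8 and 24.1 with TSH and 30.3, 23.8 and 21.6 with TSH-MMI, and rose 1.86-fold in each (edgeR adjusted p = 0.000118 and 9.59e-05). Col3a1 stood at 29, 28 and 23.2 FPKM in Empty, 39.6, 41.6 and 52.4 under TSH and 86.4, 53.3 and 54.0 under TSH-MMI, and rose 1.78-fold and 2.30-fold (edgeR adjusted p = 0.00227 and 0.000187). Both groups lay above Empty without overlap, and TSH-MMI replicate 1 was the highest library for both chains. How large a share of all genes separated in this way is not given here. Col1a2, Col5a1, Col5a2 and Col5a3 rose in TSH by 0.67, 0.98, 0.93 and 0.63 and in TSH-MMI by 0.86, 0.90, 1.28 and 0.54.

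Of type IV, Col4a1 and Col4a2 rose again. Col4a1 stood at 52.1, 59 and 59 FPKM in Empty, 98.4, 98.6 and 116 with TSH and 125, 107 and 104 with TSH-MMI, with rises of 1.97-fold and 1.88-fold (log2 fold changes 0.98 and 0.91, SE 0.10 for each, edgeR adjusted p = 7.47e-05 and 9.59e-05). Col4a2 rose by 0.87 and 0.77, to 84.9 ± 3.73 and 88.9 ± 5.97 FPKM (mean ± SD, n = 3) from 49.7 ± 4.77. Fold changes and FPKM order TSH and TSH-MMI differently here, and they are scaled in different ways. Col4a3, Col4a4, Col4a5 and Col4a6 did not pass at 4 weeks, with log2 fold changes of 0.34, 0.18, 0.24 and 0.35 with TSH and 0.33, 0.11, 0.27 and 0.18 with TSH-MMI.

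Col18a1 rose by 0.78 and 0.86 and Col15a1 by 0.97 and 0.52, at 9.36, 10.3 and 11.2 FPKM in Empty, 19.7, 15.7 and 21.2 under TSH and 15.3, 15.2 and 16.0 under TSH-MMI. Col6a1, Col6a2 and Col6a3 rose by 0.70, 0.80 and 1.08 in TSH and by 0.43, 0.54 and 0.70 in TSH-MMI. Col12a1 was called in TSH only, at 1.11 (SE 0.19, edgeR adjusted p = 0.00237) against 0.50 in TSH-MMI (SE 0.19, edgeR adjusted p = 0.0987), and the difference between TSH-MMI and TSH did not pass (-0.61, SE 0.19, edgeR adjusted p = 0.442). Col14a1 rose by 0.78 and 0.90, Col8a1 by 1.18 and 1.19 and Col28a1 by 1.38 and 1.41. Col8a2 rose in TSH by 0.77 (edgeR adjusted p = 0.0343), a call lost with the muscle covariate, with only the compared groups and without any TSH library or Empty replicate 1 or 2 (highest adjusted p = 0.160). In TSH-MMI the muscle covariate also ended the calls for Col5a3, Col15a1, Col6a1, Col6a2, Col6a3 and Col11a2 (highest adjusted p = 0.309), that for Col15a1 was lost without Empty replicate 1 or 2, and that for Col5a3 without Empty replicate 3 or TSH-MMI replicate 1. Col16a1, called at 1 week, did not pass at 4 weeks (0.19 and 0.39).

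The cartilage chains again divided. Col9a1 stood at 0.330, 0.420 and 0.387 FPKM in Empty (58, 71 and 59 counts), 0.128, 0.0605 and 0.106 under TSH and 0.0444, 0.0757 and 0.0947 under TSH-MMI, a fall of 3.11-fold and 4.15-fold (log2 fold changes -1.64 and -2.05, SE 0.33 and 0.34, edgeR adjusted p = 0.00521 and 0.00138). Col9a2 fell 3.96-fold and 3.11-fold, from 65, 55 and 46 counts to 6, 20 and 12 and to 10, 21 and 14. These were the only chains called lower in TSH, and in both comparisons their calls were lost with the muscle score as a covariate (in TSH adjusted p = 0.0609 for Col9a1 and 0.0581 for Col9a2). The Col9a2 call in TSH-MMI was also lost without TSH-MMI replicate 1 (highest adjusted p = 0.395).

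Col11a2 rose by 1.13 in TSH and 1.66 in TSH-MMI. The call in TSH was lost at 10 of 14 other settings (highest adjusted p = 0.200), including leaving out any TSH library or Empty replicate 1 or 2. Col9a3 rose in TSH-MMI (0.67, edgeR adjusted p = 0.0198; lost without Empty replicate 1, TSH-MMI replicate 1 or 2 and with the muscle covariate, highest adjusted p = 0.287) and did not pass in TSH (0.54, edgeR adjusted p = 0.0551). The FPKM ratio of Col9a1 to Col9a3, chains of 1 trimer in cartilage, was 0.272 ± 0.0597 in Empty and 0.0653 ± 0.0219 in TSH at 1 week (mean ± SD, n = 3), and 0.177 ± 0.00510 and 0.0350 ± 0.0166 at 4 weeks.

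Col22a1, a FACIT collagen of the junction between muscle and tendon, had 18, 16 and 33 counts in Empty at 4 weeks and 4, 0 and 18 in TSH. With MMI it had 2, 0 and 0 in TSH-MMI and 0 in each Empty-MMI library. It was called lower in TSH-MMI (edgeR adjusted p = 0.0341), a call lost at 9 of 14 other settings, among them leaving out any single Empty or TSH-MMI library and the muscle covariate (highest adjusted p = 0.272). In Empty-MMI, set at 3 counts per library, it was at least 7.01-fold lower than in Empty (edgeR adjusted p = 0.0575). It was high in the same groups as the muscle markers given above, and their part in the result was not tested beyond the covariate.

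MMI alone at 4 weeks raised 8 of 40 chains and lowered none, against 0.57% and 1.07% of all genes, with a median log2 fold change of 0.35 (all genes 0.00). The 8 were Col1a1, Col5a1, Col4a1, Col4a2, Col18a1, Col6a1, Col6a2 and Col6a3. Col6a3 stood at 2.54, 3.38 and 3.65 FPKM in Empty and 5.55, 5.49 and 5.05 in Empty-MMI and rose 1.74-fold (log2 fold change 0.80, SE 0.16, edgeR adjusted p = 0.0272), Col6a2 rose 1.53-fold from 38.2, 39.6 and 40.4 to 64.8, 52.2 and 56.0 FPKM (0.61, SE 0.12, edgeR adjusted p = 0.0242), and Col5a1 rose 1.51-fold from 2.6, 3.1 and 2.22 to 3.88, 3.66 and 3.93 (0.59, SE 0.10, edgeR adjusted p = 0.0171). In each of these chains all Empty-MMI libraries lay above all Empty libraries. They were picked as the highest called here, and the share of all genes that separated in this way is not given.

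The other 5 rose by 0.45 to 0.53, the highest being Col18a1. None of the 8 calls was kept at every setting: the count was 0 with only the compared groups, 0 with the muscle score as a covariate, 0 without Empty-MMI replicate 1 or 3, 1 without Empty replicate 1, 2 with limma, 3 with the replicate block, 3 without Empty-MMI replicate 2 and 4 without Empty replicate 2. Over the settings tried the log2 fold change of Col6a3 ran from 0.61 to 0.94 and that of Col5a1 from 0.41 to 0.69. The muscle markers separated these groups, at 1861 to 7112 FPKM in Empty and 22.2 to 139 in Empty-MMI, and 0 of 8 of them passed edgeR's test, with 8 lower at an unadjusted p under 0.05. The share of all genes at that unadjusted threshold is not given here.

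Against Empty-MMI, TSH-MMI had 7 chains higher and 1 lower (3.03% and 1.21% of all genes), and TSH, which shares those controls, also had 7 and 1 (3.84% and 1.8%). In the first, Col5a2 was highest among the called (log2 fold change 0.92, SE 0.16, edgeR adjusted p = 0.00528), followed by Col8a1 (0.82), Col3a1 (0.77), Col1a2 (0.54), Col14a1 (0.54), Col4a1 (0.46) and Col1a1 (0.40). In the second, Col8a1 led (0.80, SE 0.14, edgeR adjusted p = 0.00582), followed by Col12a1 (0.70), Col15a1 (0.58), Col5a2 (0.56), Col4a1 (0.53), Col1a1 (0.40) and Col5a1 (0.38). Col9a1 was the chain called lower in each (log2 fold changes -2.16 and -1.74). The calls kept at every setting were Col5a2, Col8a1 and Col9a1 in the first and Col4a1, Col8a1 and Col9a1 in the second, and 4 to 5 calls were left in the first without any Empty-MMI library or TSH-MMI replicate 1, and 3 to 5 in the second without any library.

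TSH-MMI and TSH at 4 weeks differed in no chain by edgeR (0.0115% of all genes were higher and 0.00576% lower), nor by DESeq2 or limma, with 4 chains higher and 6 lower at an unadjusted p under 0.05. The test of whether MMI altered the TSH effect at 4 weeks likewise called no chain by edgeR (0% of all genes in either direction) or limma and 9 lower by DESeq2, with 1 higher and 13 lower at an unadjusted p under 0.05. For the unadjusted and DESeq2 counts of both tests the share of all genes is not given here, so they are no result about collagens.

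The effect of TSH was smaller at 4 weeks than at 1 week for 5 of 7 tested fibrillar chains. In a fit of all 21 libraries, each effect was taken within its week and the difference was tested: 7 of 40 chains had a lower effect at 4 weeks and 1 a higher one, against 0.931% and 0.418% of 17715 genes, with a median difference of -0.41 (all genes -0.01). The 5 fibrillar chains were Col3a1 (-1.33, SE 0.19, edgeR adjusted p = 0.00223), Col1a1 (-1.10, SE 0.15, edgeR adjusted p = 0.00169), Col1a2 (-1.09, SE 0.14, edgeR adjusted p = 0.00169), Col5a2 (-1.08, SE 0.20, edgeR adjusted p = 0.0109) and Col5a1 (-0.94, SE 0.14, edgeR adjusted p = 0.00352). Col5a3 (-0.53, SE 0.18, edgeR adjusted p = 0.155) and Col27a1 (0.37) did not pass. The other 5 were called at every setting tried, with log2 differences from -1.48 to -1.26 for Col3a1 and from -1.23 to -1.02 for Col1a1.

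Of the basement membrane and type VI chains only Col4a4 passed. Col4a1 stood at -0.33 (SE 0.14, edgeR adjusted p = 0.262), Col4a2 at -0.15, Col15a1 at 0.10, Col18a1 at -0.25, Col6a1 at -0.44 (SE 0.13, edgeR adjusted p = 0.0872), Col6a2 at 0.07 and Col6a3 at -0.41. The low type VI chains Col6a6 (-2.0, SE 0.87, edgeR adjusted p = 0.260) and Col6a5 (-1.03, SE 1.75) had wide errors, with 0 to 38 counts a library. Whether fibrillar and type IV chains differed from each other in this was not tested. Col4a4 had a higher effect at 4 weeks (0.63, SE 0.15, edgeR adjusted p = 0.0375), and Col11a2 (-2.21) and Col8a1 (-0.87) lower ones, and these 3 calls were lost at 11, 15 and 10 of 21 other settings, including without the libraries with thymocyte transcripts (highest adjusted p = 0.104, 0.117 and 0.0929).

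The difference for TSH-MMI called no chain by edgeR (0.00564% of genes were higher and 0.0113% lower) or limma and 1 lower by DESeq2, with 3 higher and 8 lower at an unadjusted p under 0.05. Among them was Col3a1 (-0.57, SE 0.19, edgeR adjusted p = 0.373). For the unadjusted and DESeq2 counts the share of all genes is not given here.

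**Figure D5:**
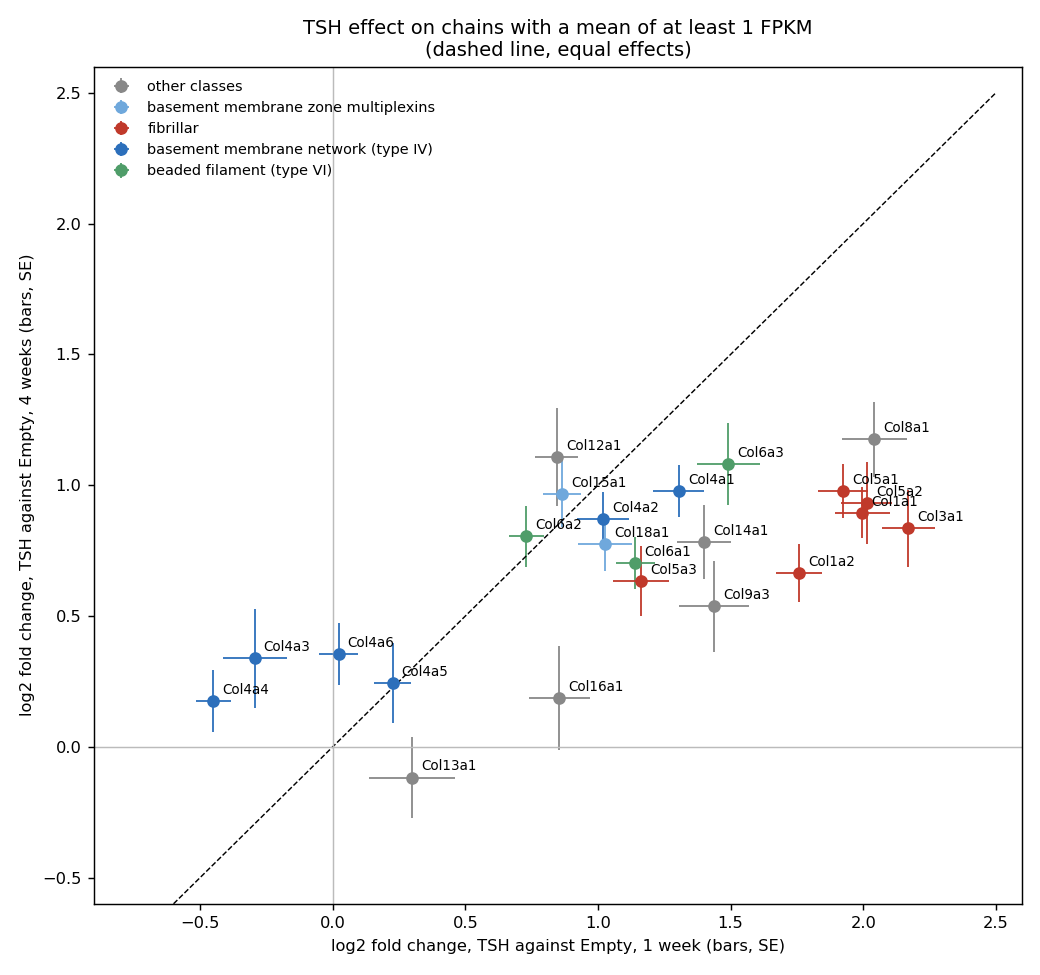
Log2 fold change of TSH against Empty at 1 week (horizontal) and 4 weeks (vertical), with standard errors, for the 23 tested chains with a mean of at least 1 FPKM over the 7 groups; the dashed line marks equal effects and colours mark classes. Col1a1, Col1a2, Col3a1, Col5a1 and Col5a2 lie below the line at 1.76 to 2.17 at 1 week and 0.67 to 0.98 at 4 weeks, while Col4a2 (1.02 and 0.87) and Col15a1 (0.86 and 0.97) lie close to it.

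Chains that share a molecule kept their proportions to different degrees. Over the 21 libraries the FPKM ratio of Col1a1 to Col1a2 ran from 0.557 to 0.754, a 1.35-fold range, and that of Col4a1 to Col4a2 from 1.07 to 1.49, a 1.39-fold range. Col9a1 to Col9a3 ran from 0.0108 to 0.321, a 29.8-fold range, whose low end rested on 7 counts of Col9a1 in TSH-MMI replicate 1 at 4 weeks. Ranges of other partners were 1.51-fold (Col4a3 to Col4a4), 1.59-fold (Col6a1 to Col6a2) and 1.80-fold (Col6a1 to Col6a3). Col4a5 to Col4a6 ranged 1.86-fold and Col5a1 to Col5a2 2.20-fold. For chains of different molecules they were 1.68-fold (Col3a1 to Col1a1), 1.86-fold (Col1a1 to Col4a1) and 2.56-fold (Col3a1 to Col4a1). The Col4a1 to Col4a2 ratio was 1.19 ± 0.0416 in Empty and 1.44 ± 0.0496 in TSH at 1 week (mean ± SD, n = 3), with each TSH library above each Empty library. As a description, Pearson's r of log2 levels about the group means was 0.89 for Col4a1 with Col4a2, 0.80 for Col4a3 with Col4a4 and for Col1a1 with Col1a2, and -0.11 for Col3a1 with Col4a1 (21 libraries, whose values share depth and tissue make-up). Of other partners, Col6a1 with Col6a3 stood at 0.64, Col6a1 with Col6a2 at 0.61 and Col4a5 with Col4a6 at 0.53. Col5a1 with Col5a2 stood at 0.39 and Col9a1 with Col9a3 at -0.10. Chains of different molecules reached 0.57 (Col3a1 with Col1a1) and 0.35 (Col1a1 with Col4a1), so the kinds of pair overlapped.

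Genes that modify, cut, bind and sense collagen were taken from lists, to be read against the 14.8% of all genes that rose and 9.34% that fell in TSH at 1 week, and the 8.52% and 5.61% at 4 weeks. Of 20 maturation enzymes and chaperones 10 rose and 1 fell in TSH at 1 week, with a median of 0.29, and at 4 weeks 1 rose and none fell, with 7 higher and 3 lower at an unadjusted p under 0.05. The share of all genes at that unadjusted threshold is not given here. At 1 week Serpinh1 (HSP47, the collagen chaperone) rose by 0.61, Plod1 and Plod2, lysyl hydroxylases, by 0.54 and 0.88, and Colgalt1, a galactosyltransferase, by 0.40, while P3h2, a prolyl 3-hydroxylase, fell (-0.70). Serpinh1 was the gene called at 4 weeks (0.41, SE 0.11, edgeR adjusted p = 0.0238).

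Of 7 procollagen processing genes 5 rose at 1 week (median 0.94; 14.8% of all genes) and 4 of 6 tested at 4 weeks (median 0.53; 8.52% of all genes). Adamts2, which cuts the amino-terminal propeptide of fibrillar procollagens, rose by 1.67 and 0.83, and Bmp1, which cuts the carboxy-terminal one, by 0.60 and 0.39. The enhancers of that second step, Pcolce and Pcolce2, rose by 0.94 and 1.13 at 1 week and by 0.51 and 0.73 at 4 weeks. In the difference of effects between the weeks Adamts2 was lower (-0.83, SE 0.19, edgeR adjusted p = 0.0332), as fibrillar chains were.

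Of 11 collagen-binding matrix proteins 9 rose at 1 week (median 1.17) and 6 rose and 1 fell at 4 weeks (median 0.60), where 14.8% of all genes rose at 1 week and 8.52% rose and 5.61% fell at 4 weeks. The proteoglycan Bgn rose by 1.42 and 1.07, Prelp, an anchor between basement membrane and matrix, by 1.06 and 1.02, Nid1, which links type IV collagen to laminin, by 1.23 and 0.60, and Sparc, a collagen-binding glycoprotein, by 0.74 at 1 week and not at 4 weeks (0.23, edgeR adjusted p = 0.115). Dcn, a small proteoglycan of fibrils, fell at 4 weeks (-0.78, SE 0.16, edgeR adjusted p = 0.00674). Of 9 receptors 7 rose at 1 week (median 1.03) and 6 at 4 weeks (median 0.63), among them Itga1, the integrin for type IV collagen (1.03 and 0.85), Mrc2, which takes up collagen fragments (1.06 and 1.03), Lair1, an inhibitory receptor of immune cells (1.20 and 1.70), and Itgb1 (0.52 and 0.37).

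Markers of cell types that make collagen moved unevenly, beside 14.8% of all genes higher at 1 week and 8.52% higher and 5.61% lower at 4 weeks. Of 7 fibroblast markers outside the collagens only Pdgfrb, which pericytes carry as well, rose at 1 week (1.11), with a median of 0.16, a share near that of all genes. At 4 weeks Pdgfrb rose (1.01) and Dcn fell. Their summed level was 160 to 199 FPKM in Empty and 131 to 172 in TSH at 1 week, and 165 to 221 and 89.4 to 150 at 4 weeks, and Dcn and Lum are in both this list and that of collagen-binding proteins. All 5 endothelial markers rose at both weeks, their sum being 132 to 157 FPKM in Empty and 211 to 225 in TSH at 1 week and 110 to 117 and 146 to 165 at 4 weeks. All 4 macrophage markers rose too, from 58.3 to 66.3 FPKM in Empty to 142 to 162 in TSH at 1 week. The part of these cell types in the collagen results was not tested.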

How the data were processed

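RNA was extracted with a Nucleospin RNA Plus kit and made into libraries with the TruSeq Stranded mRNA kit, per the labels' protocols. Per the submitters' processing notes, the tools were HISAT2 2.1.0, StringTie 2.1.3b, Trimmomatic 0.38 and FastQC 0.11.7, with build mm10. The annotation, counter and strand setting were not given in the sources used here. Per the file headers, the authors deposited read counts and FPKM values per gene and library, 1 table a week. The TPM values the authors deposited were not used.

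The test on counts was that of edgeR 4.0.16 (R 4.3.3): filterByExpr (minimum count 10), TMM scaling (factors 0.972 to 1.05, 0.935 to 1.1 and 0.912 to 1.08), robust quasi-likelihood F tests of group means, and Benjamini-Hochberg adjustment over all genes of a fit, at 0.05. Fits held the 9 libraries of 1 week (16956 genes), the 12 of 4 weeks (17355) or all 21 (17715), with 1 spread estimated over the groups of a fit (biological coefficients of variation 0.185, 0.184 and 0.189). SE is the log2 fold change divided by the square root of F. FPKM, which is per length, was used to compare genes and to show levels by library. It is not on the TMM scale of the fold changes, so levels and fold changes can order groups differently. With limma on log2(FPKM + 1) in place of edgeR, log2 fold changes of TSH-MMI against TSH at 4 weeks shifted by a median of 0.146 over genes. A muscle score, the mean log2 CPM of 8 markers (prior count 2), served as a covariate. Where a group was at 0, bounds used 3 counts per library, which cover counting error only. Within groups, chi-square over degrees of freedom was 9.49 to 124 for the 21 library pairs, so none agreed within sampling noise. Scripts were tested on simulated data.

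Alternatives were DESeq2 1.42.0, RLE size factors, limma 3.58.1 on log2(FPKM + 1), no filter, scaling without 78 genes (Tg, mitochondrial and ribosomal RNA), only the compared groups, the replicate block, the muscle covariate, leaving out both libraries with thymocyte transcripts, and leaving out each library. The members, lists and named genes were chosen with earlier results of these data known: the main chains of each class, in each comparison up to 3 highest and 3 lowest called, and up to 4 genes of each list with the smallest p, with others named after their values were seen. Col4a1 and Col4a2 overlap, and without the use of strand reads there cannot be assigned. 1 thyroid marker is not reported here.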

Additional observations from a re-analysis of the deposited data

Results flagged for a closer look

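The effect of TSH against Empty differed between the weeks for 8 chains, by the test of that difference in a fit of all 21 libraries (log2 difference, 4 weeks minus 1 week, edgeR adjusted p in each case under the threshold). It was lower at 4 weeks for Col11a2 (-2.21), Col3a1 (-1.33), Col1a1 (-1.10), Col1a2 (-1.09), Col5a2 (-1.08), Col5a1 (-0.94) and Col8a1 (-0.87), and higher for Col4a4 (0.63). Of all genes, 0.931% were called lower in this difference and 0.418% higher. The 8 muscle markers summed to 1861 to 7112 FPKM in Empty and 2.15 to 629 in TSH at 4 weeks, and to 3.94 to 809 and 99.9 to 2214 at 1 week. With their score as a covariate 7 of the 8 calls were made, Col11a2 being the one lost. Over 21 other settings the calls for Col11a2, Col4a4 and Col8a1 were lost at 15, 11 and 10. Their highest adjusted p over these settings was 0.117, 0.104 and 0.0929, and all were lost without the libraries with thymocyte transcripts.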

How the results depend on the processing

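Under RLE size factors, no filter on low counts and scaling without Tg, mitochondrial and ribosomal RNA genes, each count of called chains stayed within 1.5 times its value, and the median log2 fold change of all genes moved by at most 0.0215. With limma on log2(FPKM + 1) the median shift was larger, reaching 0.191 in the difference of the TSH effect with and without MMI. No chain reversed its direction where called. Counts moved by more than 1.5 times as follows, and the cause was not tested. For MMI alone at 4 weeks (8 called) the count was 0 with only the compared groups, 0 with the muscle covariate, 2 with limma and 0 to 8 leaving out 1 library. For TSH-MMI against TSH at 1 week (2) it was 13 with DESeq2, 0 with limma, the muscle covariate or without both libraries with thymocyte transcripts, and 0 to 0 leaving out 1 library of either group. For TSH-MMI against Empty at 4 weeks (21) it was 11 with the muscle covariate. For TSH against Empty-MMI (8) it was 13 with DESeq2, 5 with limma and 3 to 5 leaving out 1 library, and for TSH-MMI against Empty-MMI (8) it was 4 to 8. For the difference of the TSH effect between weeks (8) it was 5 without the libraries with thymocyte transcripts and 5 to 10 leaving out 1 library. DESeq2 called 1 chain in the difference of the TSH-MMI effect and 9 in the difference with and without MMI, where edgeR called 0. The share of all genes that DESeq2 called is not given here for any comparison. Replicate numbers did not pair the samples: deviations of same-numbered libraries correlated at -0.251 to 0.267 (27 pairs) against -0.372 to 0.358 for others (54). For comparisons whose count moved by less, leaving out 1 library gave 21 to 26 calls for TSH against Empty at 1 week, 20 to 24 for TSH-MMI at 1 week, 19 to 23 for TSH at 4 weeks and 17 to 21 for TSH-MMI at 4 weeks. With the replicate block the counts were 3 for MMI alone, 5 for TSH against Empty-MMI and 0 for TSH-MMI against TSH at 1 week, and stayed within 1.5 times elsewhere. The fit of only the compared groups gives no separate value for the difference with and without MMI, which uses all 4 groups. With 3 libraries a group and a biological coefficient of variation near 0.19, chains under about 10 counts, such as Col10a1, Col24a1 and Col6a4, could not be tested, and differences in them were not detectable at this depth.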
